A study of Mus musculus with 12 samples.

Results

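The genes described here are the nuclear genes for mitochondrial complex I and for the factors that assemble it, taken as every symbol that starts with Nduf and is no pseudogene. They number 45 of the 43279 genes in the table of normalised read counts. Of these, 7 encode core subunits, 29 accessory subunits and 7 assembly factors (the Ndufaf genes), and 2 belong to the NDUFA4 family. The cells were sorted from adult naive mice, either wild-type C57BL/6 (WT, 6 mice) or Osmr-/- (5 mice), which lack the receptor subunit that binds oncostatin M. The sources used here do not give the strain background of the Osmr-/- mice. From each mouse 1000 lineage-negative bone marrow cells were taken that were positive for KIT and SCA1 and negative for FLT3 and CD48, a gate that holds long-term and short-term hematopoietic stem cells. Polyadenylated RNA was amplified by 13 to 18 PCR cycles and sequenced, so each library is 1 mouse and p-values measure the spread between mice. The labels list another Osmr-/- mouse, numbered 4, that was not analysed here.

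Complex I (NADH:ubiquinone oxidoreductase) is the entry point of the mitochondrial respiratory chain. It takes electrons from NADH, passes them along iron-sulfur clusters to ubiquinone and pumps protons across the inner membrane. The core subunits do this chemistry and descend from the bacterial enzyme, with the nuclear ones all in the arm that reaches into the matrix and the mitochondrially encoded ones in the membrane arm. Accessory subunits surround and stabilise the core, and assembly factors help to build modules of the complex without staying in it. Stem cells in bone marrow are known for low reliance on respiration at rest and for a rise of it on activation.

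Each library held between 9.50 and 22.1 M reads assigned to genes (M for mega), and 10 of the 11 lay at or below 13.6 M. The sorting markers Kit and Ly6a (SCA1) were well detected, with mean normalised counts of 3740 ± 460 and 5376 ± 1470 in WT (SD, n = 6) and of 4455 ± 579 and 6893 ± 1837 in Osmr-/- (SD, n = 5). Transcripts of the negative markers Flt3 and Cd48 were present too, at WT means of 504 ± 164 and 637 ± 429 and Osmr-/- means of 389 ± 148 and 853 ± 355. Osmr itself held 13 reads over all WT and 4 over all Osmr-/- libraries, too few to check the labels. Libraries whose labels carry the numbers 1 to 3 stood apart from those numbered 4 to 6 in both genotypes along the 2nd principal component of all tested genes, which held 16.5% of the variance. The labels name no batch, and within-set values are therefore given beside the results. Summed erythroid marker transcripts also differed between genotypes. They ran from 21761 to 64953 normalised counts in WT and from 14338 to 20501 in Osmr-/-, and 19 of 21 tested erythroid markers had a log2 fold change below 0. Car2 and Car1 weighed most in this sum, with means of 26493 and 8168 in WT and of 11416 and 1284 in Osmr-/-. The 2 markers above 0 were the globin Hbb-bt, with 2.02 (SE 0.381), and Icam4, with 0.42 (SE 1.24). The late markers Alas2 and Slc4a1 were near 0 in both genotypes, with mean normalised counts of at most 3.93.

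The Nduf transcripts were a visible part of the RNA. Summed over all members they made up 1.42% ± 0.248 of the reads in WT (SD, n = 6) and 1.70% ± 0.290 in Osmr-/- (SD, n = 5). The sum ran from 112391 to 238266 normalised counts in WT and from 127008 to 263002 in Osmr-/-, so the genotypes overlapped over most of their range. Within the number sets the Osmr-/- mean was the higher one both times, at 238602 against 190661 in the lower numbers and at 150785 against 126278 in the upper ones. Per kilobase of transcript Ndufa4 was the most abundant member, with a mean of 36668 normalised counts per kb over the 11 libraries. Ndufa7, an accessory subunit of the matrix arm, followed at 14313 and Ndufb9, an accessory subunit of the membrane arm, at 11943. The lowest tested members were the assembly factors Ndufaf7 at 264 and Ndufaf5 at 267 and the core subunit Ndufs1 at 271 normalised counts per kb. The fewest reads of all belonged to Ndufa4l2, a paralog of Ndufa4, with mean normalised counts of 1.56 ± 1.59 in WT and 2.08 ± 2.88 in Osmr-/-. Ndufa4l2 was the only member below the filter of at least 10 normalised counts in at least 5 libraries, which left 44 members tested.

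The medians of core and accessory subunits lay on different sides of 0. The median log2 fold change, Osmr-/- over WT, was -0.55 for the 7 core subunits, with 5 of them lower and 2 higher in Osmr-/-. It was 0.50 for the 29 accessory subunits, of which 24 were higher and 5 lower. The 7 assembly factors had a median of -0.23, with 5 lower and 2 higher. All 36 subunits together had a median of 0.34 and all 13358 tested genes one of -0.05, with 6254 genes above and 7104 below 0. No single member passed an adjusted p of 0.05 in limma, in which 3 of all tested genes did (0.0225%). At an unadjusted p under 0.05 limma counted 18 of the 44 members, 13 higher and 5 lower in Osmr-/-. That is 40.9% of the members, against 18.0% of all tested genes, of which 7.5% were higher and 10.5% lower. The count of 13 changed when single libraries were left out. It was 6 without WT 4 or without WT 5, and 21 without WT 3. Without Osmr-/- 1, 2 and 3 it was 7, 4 and 5. The count of 5 lower stayed between 4 and 6 for every library left out. The shares of all tested genes in these fits are not given here, so the changes cannot be compared with those of other genes. The quasi-likelihood test of edgeR on the recovered reads called 0 members (0.015% of all genes), and DESeq2 called 3 (4.37% of all genes). Those 3 were Ndufv1 and Ndufa9, lower in Osmr-/-, and Ndufaf4, higher.

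**Figure D1:**
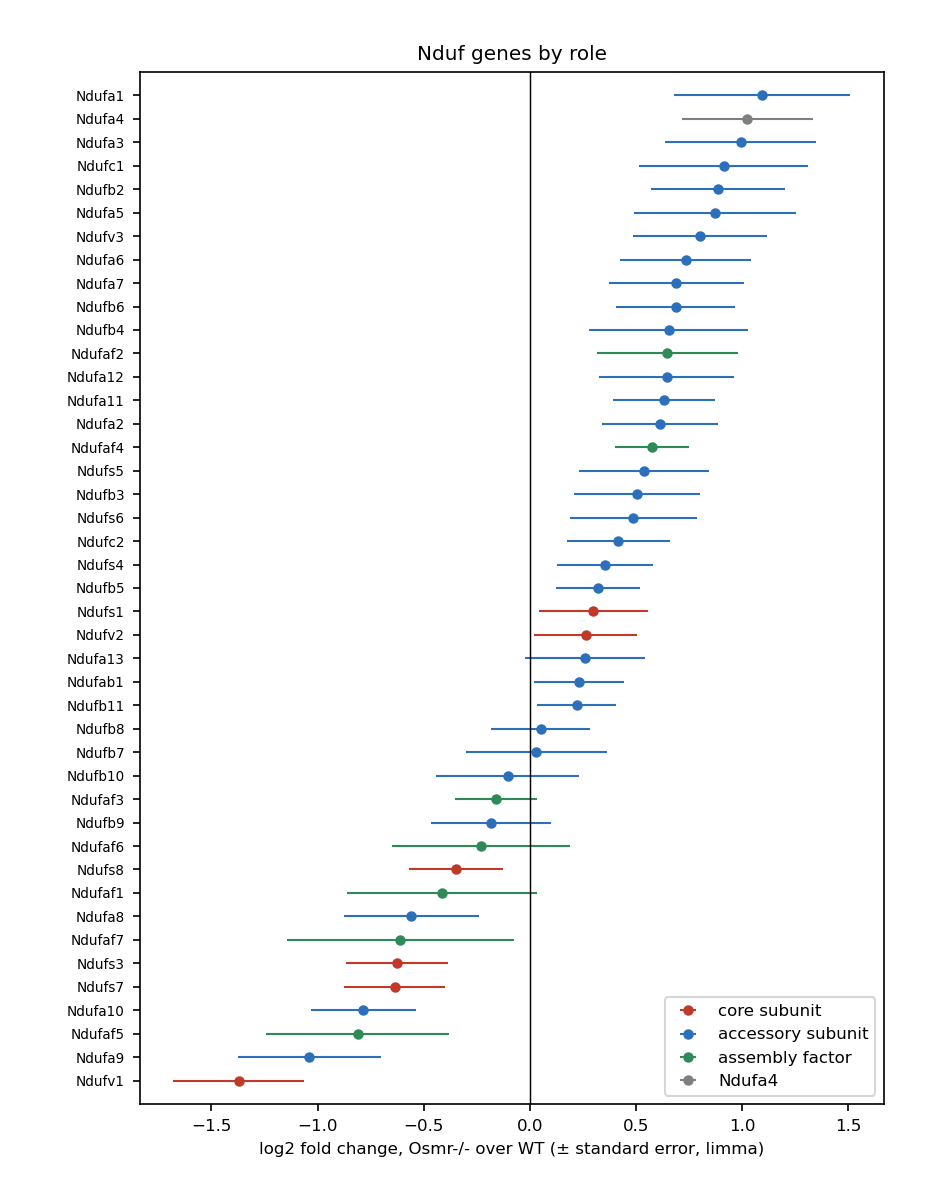
Each point is the log2 fold change, Osmr-/- over WT, of 1 Nduf gene, for 43 of the 44 tested, with its standard error from limma, coloured by role and ordered by size. Of the assembly factors 5 of 7 lie below 0, the lowest point is Ndufv1, a core subunit, at -1.37, and 24 of 29 accessory subunits lie above 0, up to 1.09 for Ndufa1.

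Among the core subunits, those of the module that oxidises NADH are Ndufv1, Ndufv2 and Ndufs1. Ndufv1 carries the flavin and the NADH binding site. Its normalised counts in WT ran from 410 to 1240 with a median of 976, and the 5 Osmr-/- libraries held 472, 241, 253, 439 and 371. Only the WT library numbered 6 reached down into the Osmr-/- range. The mean of the log2 values was 2.59-fold lower in Osmr-/- (log2 fold change -1.37, SE 0.309), with an adjusted p of 0.080 in limma. Without WT 6 the same limma test gave -1.59 and an adjusted p of 0.029, and with a term for the number sets -1.39 and 0.040. Leaving out any other single library gave a limma adjusted p of 0.073 to 0.191. The sample number as a block gave 0.101 in limma. The adjusted p was 0.076 in edgeR and 0.0012 in DESeq2. The other core subunits of that module did not share this difference. Ndufv2, which holds an iron-sulfur cluster beside the flavin, ran from 5374 to 11833 (median 7202) in WT and stood at 9978, 11364, 9576, 7870 and 6273 in Osmr-/-, with a log2 fold change of 0.26 (SE 0.243). Ndufs1, the largest subunit and a carrier of several clusters, ran from 435 to 931 (median 612) in WT and stood at 766, 713, 1126, 671 and 651 in Osmr-/-, with 0.30 (SE 0.256).

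Ndufs3, Ndufs7 and Ndufs8 belong to the core subunits of the module that passes electrons on to ubiquinone. All 3 had log2 fold changes below 0. Ndufs7 holds the last cluster before ubiquinone. It ran from 4006 to 6204 (median 4867) in WT and stood at 3356, 4955, 2926, 3482 and 1806 in Osmr-/-. A single Osmr-/- library, number 2, lay inside the WT range, and the log2 fold change was -0.64 (SE 0.238, limma adjusted p 0.193). Ndufs3, a scaffold of the same module, ran from 1741 to 2683 (median 2206) in WT and stood at 1784, 2001, 1462, 1408 and 805 in Osmr-/-, a log2 fold change of -0.63 (SE 0.239, limma adjusted p 0.198). Ndufs8, which carries a pair of clusters, ran from 4574 to 6881 (median 5395) in WT and stood at 4113, 6044, 4881, 4484 and 2676 in Osmr-/-, with -0.35 (SE 0.221).

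Accessory subunits of the matrix arm were higher in Osmr-/- for 8 of 9 genes, with a median of 0.65. The exception was Ndufa9, which sits where the matrix arm meets the membrane. It ran from 872 to 3908 (median 1712) in WT and stood at 997, 1336, 610, 824 and 928 in Osmr-/-. The ranges overlapped at their ends, the log2 fold change was -1.04 (SE 0.336) and the adjusted p was 0.149 in limma and 0.041 in DESeq2. The other 8 genes ranged from 0.35 for Ndufs4 to 0.87 for Ndufa5. Ndufa5 ran from 1704 to 6029 (median 2999) in WT and stood at 7476, 9229, 8033, 3163 and 2610 in Osmr-/-. Its 3 Osmr-/- libraries of numbers 1 to 3 lay above every WT library, and the 2 of numbers 5 and 6 lay inside the WT range. Ndufa7 ran from 3283 to 10985 (median 5747) in WT and stood at 10801, 13133, 10422, 6922 and 5599 in Osmr-/-, with 0.69 (SE 0.317). Ndufv3, an accessory partner of Ndufv1 and Ndufv2, had 0.80 (SE 0.316).

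Membrane arm subunits are all accessory in this set, since the core of that arm is encoded in mitochondrial DNA. Of the 19 tested, 15 were higher and 4 lower in Osmr-/-, with a median of 0.42. Ndufa1, a short protein with a single membrane span encoded on the X chromosome, had the highest fold change of all members. It ran from 943 to 5093 (median 2322) in WT and stood at 5644, 6629, 6464, 2711 and 2572 in Osmr-/-. The Osmr-/- libraries split by number, and the log2 fold change was 1.09 (SE 0.413, limma adjusted p 0.195). With a term for the number sets it was 0.96, with an adjusted p of 0.044 in limma. Ndufa3, another small membrane subunit, ran from 1328 to 5834 (median 2645) in WT and stood at 6748, 6761, 6086, 3725 and 2981 in Osmr-/-, with 0.99 (SE 0.355). Ndufb2 ran from 620 to 2587 (median 1335) in WT and stood at 2571, 3447, 2714, 1824 and 1771 in Osmr-/-, with 0.89 (SE 0.315). Ndufc1, at the base of the membrane arm, had 0.91 (SE 0.400).

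The 4 membrane arm genes below 0 were Ndufa10, Ndufa8, Ndufb9 and Ndufb10. Ndufa10 resembles deoxynucleoside kinases in sequence. It ran from 1473 to 2583 (median 2169) in WT and stood at 1439, 1697, 1432, 952 and 743 in Osmr-/-. Only the Osmr-/- library numbered 2 lay inside the WT range, with a log2 fold change of -0.79 (SE 0.247) and a limma adjusted p of 0.143. The term for the number sets moved this limma adjusted p to 0.033. Ndufa8, on the face towards the intermembrane space, had -0.56 (SE 0.317). Ndufb9 had -0.18 (SE 0.283) and Ndufb10 had -0.10 (SE 0.337), both smaller than their standard errors. The 10 Ndufb genes as a family had a median of 0.27 and 8 of them lay above 0. The 12 Ndufa subunits had a median of 0.64 with 9 above 0. Ndufab1, the mitochondrial acyl carrier protein that serves both fatty acid synthesis and complex I, had 0.23 (SE 0.213).

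**Figure D2:**
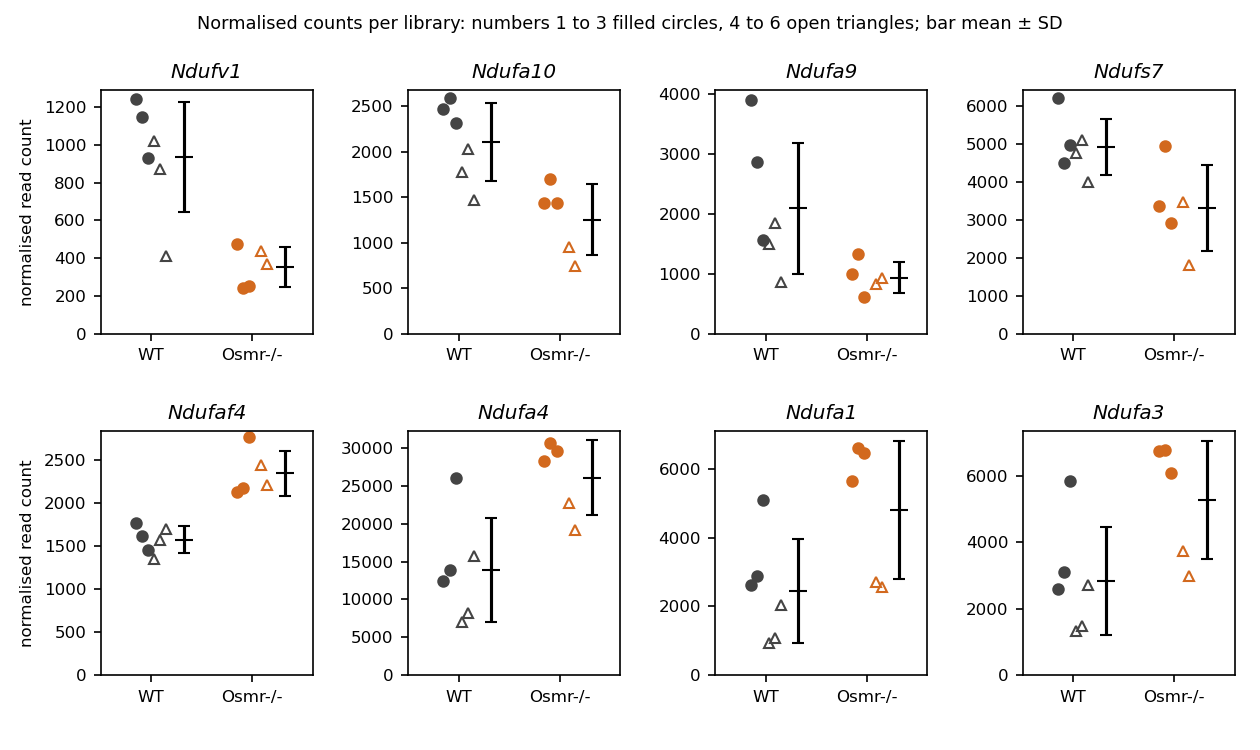
Normalised read counts of 8 Nduf genes in every library, WT on the left and Osmr-/- on the right of each panel, with the mean and SD beside the points. Filled circles are libraries numbered 1 to 3 and open triangles those numbered 4 to 6, and the axes start at 0. Ndufaf4 is the only gene whose groups do not overlap, with WT at 1347 to 1776 and Osmr-/- at 2132 to 2770.

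No assembly factor passed the limma threshold (1 of the 7 at an unadjusted p under 0.05, Ndufaf4). The 5 below 0 were Ndufaf1, Ndufaf3, Ndufaf5, Ndufaf6 and Ndufaf7, and the 2 above it Ndufaf2 and Ndufaf4. Ndufaf3 and Ndufaf4 are known to bind each other while the ubiquinone module is built. Ndufaf4 ran from 1347 to 1776 (median 1595) in WT and stood at 2132, 2180, 2770, 2449 and 2218 in Osmr-/-. Every Osmr-/- library lay above every WT library. Ndufaf4 was the only member with such a gap, which 2.52% of all tested genes showed in either direction and 1.09% in this one. Its log2 fold change was 0.57 (SE 0.175), or 1.49-fold higher, with an adjusted p of 0.134 in limma and 0.0042 in DESeq2. It was also even across the number sets, at 0.54 and 0.61. Ndufaf3 ran from 954 to 1275 (median 1065) in WT and stood at 1015, 913, 978, 1241 and 803 in Osmr-/-, with -0.16 (SE 0.192).

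Ndufaf2, a paralog of Ndufa12 that acts late on the NADH module, ran from 754 to 2198 (median 1036) in WT and stood at 2269, 2502, 2629, 1190 and 917 in Osmr-/-. The 3 Osmr-/- libraries of numbers 1 to 3 exceeded all WT libraries, and the log2 fold change was 0.65 (SE 0.332). Ndufaf5, which hydroxylates Ndufs7, ran from 189 to 514 (median 391) in WT and stood at 503, 225, 92.8, 249 and 118 in Osmr-/-, with -0.81 (SE 0.430). Ndufaf7, a methyltransferase needed for assembly, ran from 111 to 1159 (median 506) in WT and stood at 453, 313, 249, 548 and 114 in Osmr-/-, with -0.61 (SE 0.535). Both are enzymes, and neither passed an adjusted p of 0.05 in limma. Ndufaf1 belongs to the complex that builds the membrane arm. It ran from 475 to 1576 (median 972) in WT and stood at 1129, 1056, 977, 471 and 223 in Osmr-/-, with -0.41 (SE 0.449). Ndufaf6, needed early in assembly, ran from 251 to 1313 (median 658) in WT and stood at 779, 991, 456, 496 and 262 in Osmr-/-, with -0.23 (SE 0.420). These last 2 genes varied more between the number sets than between the genotypes.

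Ndufa4 carries a complex I name but is known as a subunit of complex IV, and it was kept apart from the subunits. It ran from 7064 to 26127 (median 13167) in WT and stood at 28336, 30790, 29609, 22744 and 19243 in Osmr-/-. The 3 Osmr-/- libraries of numbers 1 to 3 exceeded all WT libraries and the other 2 lay in the upper WT range. The log2 fold change was 1.02 (SE 0.308), or 2.03-fold higher, with a limma adjusted p of 0.133. With the term for the number sets the limma adjusted p was 0.049. That fit called 4 members, Ndufa1 and Ndufa4 higher and Ndufa10 and Ndufv1 lower in Osmr-/-, against 2.52% of all genes.

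Positions are from GENCODE M21 on GRCm38, the mm10 assembly. Ndufv1 lies on chromosome 19 at 4007384 to 4012806 (minus strand), close to Ndufs8 at 3908863 to 3912774. Ndufa9 lies on chromosome 6 at 126821721 to 126849136, and Ndufa4 on the same chromosome at 11900292 to 11907497, both on the minus strand. Ndufa10 lies on chromosome 1 at 92439010 to 92473860 (minus strand) and Ndufaf4 on chromosome 4 at 24898083 to 24905001 (plus strand). Ndufa1 lies on chromosome X at 37187588 to 37191163 (minus strand). The values are counts over whole genes, so they do not separate exons or isoforms.

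The contrast of core with accessory subunits was also visible library by library. For each library the log2 value of each gene was set against that gene's mean, and the median was taken over a group of genes. The core median minus the accessory median was 0.55, 0.53, -0.23, 1.08, 0.83 and 0.20 in WT 1 to WT 6. In the Osmr-/- libraries numbered 1, 2, 3, 5 and 6 it was -0.55, -0.44, -0.70, -0.26 and -0.39. All 5 Osmr-/- values lay below all 6 WT values, with the nearest pair at -0.26 and -0.23, both negative. The nearest WT library was number 3, in which accessory subunits were high at 0.55. In the other 5 WT libraries the accessory median was negative, between -0.85 and -0.06. The lowest value, -0.70, came from Osmr-/- 3. That library also stood apart in summed myeloid markers, at 26401 normalised counts against 10762 to 11926 in the other Osmr-/- and 9046 to 17386 in the WT libraries. S100a8 and S100a9 weighed most in this sum, with highest Osmr-/- values of 10780 and 7277 and highest WT values of 180 and 121. Lyz2 and Prtn3 reached at most 6044 and 5522 in Osmr-/-, against 13608 and 5148 in WT. The part of this marker difference in the Nduf values was not tested. Without Osmr-/- 3 the core and accessory medians of the log2 fold change were -0.60 and 0.42. Osmr-/- 6 was low throughout, with a core median of -0.85, an accessory median of -0.46 and an assembly factor median of -1.17. It was the lowest of its group for 35 of the 44 tested members. In a bulk sample of sorted cells, fewer cells that express a gene and less RNA per cell cannot be told apart.

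**Figure D3:**
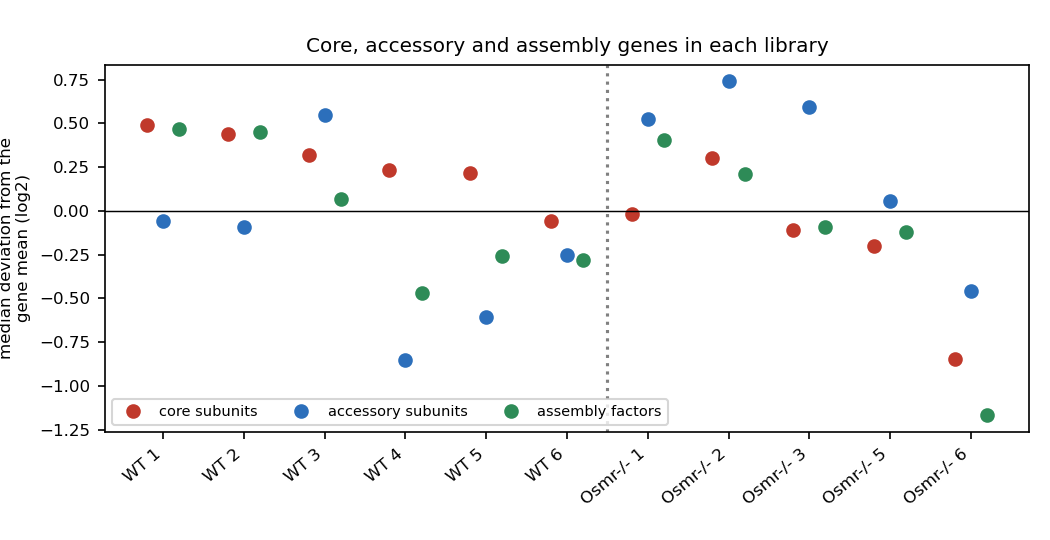
For each of the 11 libraries, points give the median deviation from the gene mean (log2) over the core subunits (red), the accessory subunits (blue) and the assembly factors (green). Red lies above blue in 5 of 6 WT libraries, all but WT 3, and below blue in all 5 Osmr-/- libraries.

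The number of the library moved the members more evenly than the genotype did. With genotype in the limma model, all 44 members were lower in numbers 4 to 6 than in 1 to 3, and 21 of them passed an adjusted p of 0.05. Among all tested genes 7.29% passed, 4.69% lower and 2.61% higher in the upper number set. The median difference was -0.67 over the members and 0.08 over all tested genes. The drop was not particular to the members. Of the 38 nuclear genes for complexes II to V 37 were lower in numbers 4 to 6 (median -0.54). All 6 tested mitochondrially encoded complex I genes were lower too (median -0.99). The read share of all mitochondrial genes did not show such a drop. Its mean was 5.17% in WT 1 to 3 and 6.59% in WT 4 to 6 (SD 1.94 and 1.97). In Osmr-/- it was 7.64% in the lower set and 7.58% in the upper one (SD 0.506 and 0.646). Other tested genes with at most 300 coding bases had a median of -0.58, and those beyond 3000 bases one of 0.45. The nuclear RNA Malat1 went the opposite way, at 9975 to 51523 normalised counts in WT 1 to 3 and 175463 to 230983 in WT 4 to 6. The Osmr-/- libraries held 72916 to 109658 in the lower set and 130004 to 173014 in the upper one. Erythroid marker sums in WT split the same way as the members, at 58230 to 64953 in WT 1 to 3 and 21761 to 23943 in WT 4 to 6. In Osmr-/- these sums overlapped, at 14501 to 20501 in the lower set and 14338 to 16020 in the upper one. With genotype in the limma model, 12 of 21 tested erythroid markers were lower in numbers 4 to 6 (median -0.32), and 0 passed an adjusted p of 0.05. The part of the Malat1 and erythroid differences in the Nduf values was not tested.

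Taking genotype within each set, 38 of the 44 members (86.4%) had the same sign in both, against 7930 of all 13358 tested genes (59.4%). All 7 assembly factors were among these 38 members. The agreement was not particular to the members. The signs also matched for 31 of the 38 nuclear genes for complexes II to V and all 6 tested mitochondrially encoded complex I genes. Among the 14 tested assembly factors without an Nduf name they matched for 8. The core median was -0.32 in the first set and -0.82 in the second. For accessory subunits it was 0.46 and 0.44, and for assembly factors -0.43 and -0.14. Ndufv1 gave -1.84 and -0.82, Ndufa9 -1.48 and -0.62, and Ndufa10 -0.69 and -1.05. Ndufa4 gave 0.84 and 1.11 and Ndufa1 0.89 and 1.05. The limma test of the difference between the sets called 0 of all tested genes (0.0%, and 9.85% at an unadjusted p under 0.05). Genes near 0 over all libraries, such as Ndufb10 with 0.28 and -0.73 or Ndufb7 with 0.31 and -0.51, crossed 0 between the sets.

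**Figure D4:**
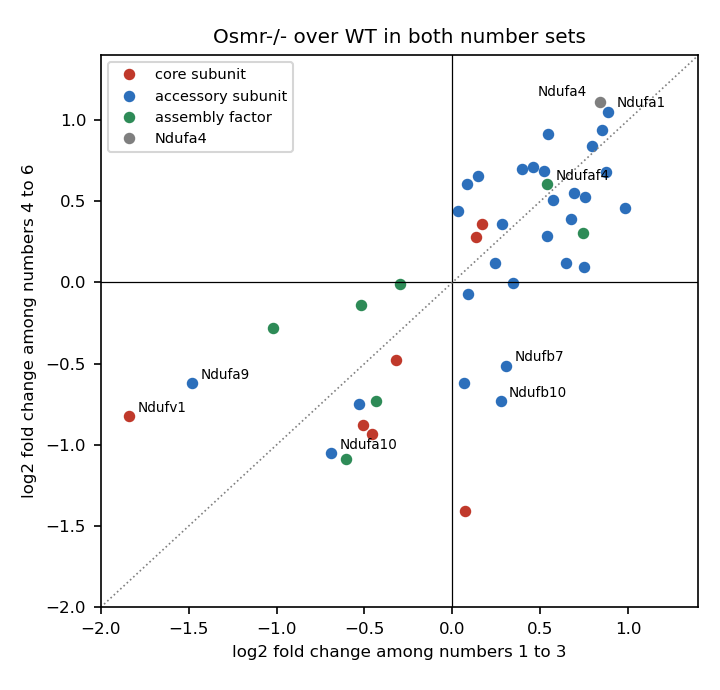
Each point is a tested Nduf gene, with its log2 fold change, Osmr-/- over WT, among libraries numbered 1 to 3 on the x axis and among those numbered 4 to 6 on the y axis. The dotted line marks equal values. Of the 44 genes 38 (86.4%, against 59.4% of all tested genes) lie in the lower left or upper right quadrant, among them Ndufv1 with -1.84 and -0.82 and Ndufa4 with 0.84 and 1.11. Of the 38 nuclear genes for complexes II to V, not drawn, 31 had the same sign in both sets.

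Core subunits are longer proteins than most accessory ones, and the fold changes of the members followed the coding length. The median coding length in GENCODE M21 was 789 bases for core subunits (636 to 2181), 411 for accessory subunits (210 to 1404) and 990 for assembly factors (504 to 1308). Over the 44 members Spearman's rank correlation of the log2 fold change with coding length was -0.76, and over the 29 accessory subunits alone it was -0.70. With the length of the whole transcript the correlations were weaker, at -0.45 and -0.32. With the percentage of G and C bases in the transcript they were -0.19 and -0.15. These are correlations across genes that share the same 11 libraries, so the genes are not independent. Of the 26 subunits with at most 600 coding bases 23 were higher in Osmr-/- (median 0.52), and of the 10 longer ones 7 were lower (median -0.59). The 3 longer ones above 0 were Ndufs1, Ndufv2 and Ndufv3, and the 3 shorter ones below 0 were Ndufa8, Ndufb9 and Ndufb10.

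Genes outside the family also differed by coding length. The median log2 fold change of 246 other tested genes with at most 300 coding bases was 0.48, beside 0.99 for the 5 members of that length. For lengths over 300 and up to 450 bases it was 0.08 in 570 other genes and 0.64 in 14 members. From 450 to 600 bases it was -0.23 in 707 other genes and 0.22 in 11 members. From 600 to 900 bases it was -0.39 in 1570 other genes and -0.49 in 4 members, and from 900 to 1500 bases -0.26 in 3021 other genes and -0.61 in 9 members. Beyond 1500 bases the medians of other genes turned up to 0.02 and, beyond 3000 bases, to 0.14. Spearman's correlation over the 10865 other genes with a coding length was therefore only 0.15, since it did not run one way. Over the same genes it was 0.21 with transcript length, opposite in sign to the members, and -0.27 with the percentage of G and C bases. Every core subunit had more than 600 coding bases and all but 3 of the 29 accessory subunits had at most 600, so role and coding length cannot be told apart here.

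**Figure D5:**
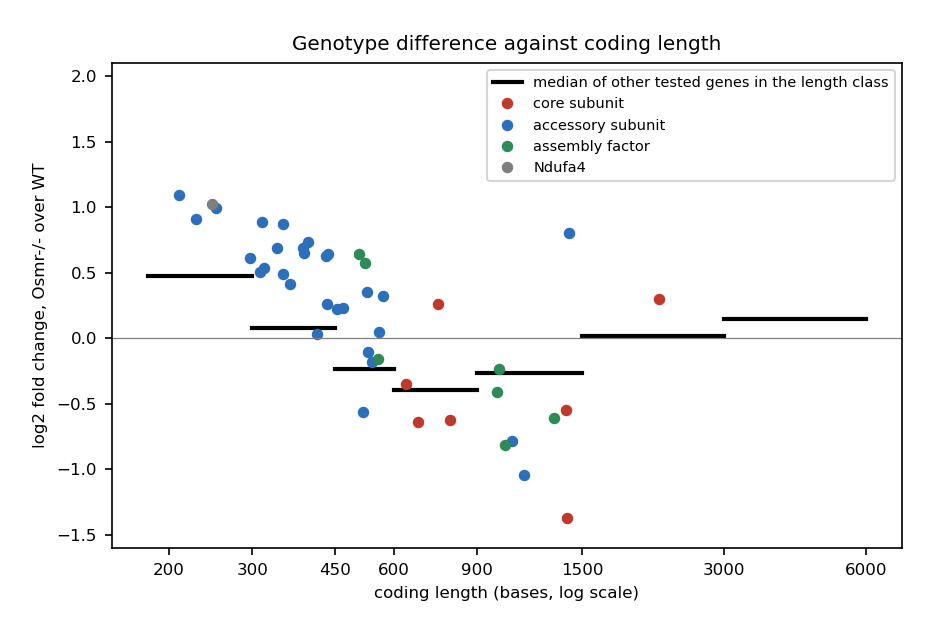
Points are the 44 tested Nduf genes by coding length (bases, log scale) and log2 fold change, Osmr-/- over WT, coloured by role. Black bars give the median of all other tested genes in each of 7 length classes, drawn from 180 and to 6000 bases at the open ends. Members and other genes both go from positive medians below 300 bases (0.99 and 0.48) to negative ones between 600 and 1500 bases.

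The same split by length appeared in the nuclear genes for complexes II to V, a list of 38 genes written with earlier results of these data known. Of the 28 with at most 600 coding bases 22 were higher in Osmr-/- (median 0.66), and of the 10 longer ones 9 were lower (median -0.52). No gene of the list was called by limma, and 16 were higher and 6 lower at an unadjusted p under 0.05. Uqcrc1, a long core protein of complex III, had -2.08 (SE 0.454) and Cox7b, a short subunit of complex IV, had 1.23 (SE 0.368). The mitochondrially encoded complex I subunits are counterparts of the core subunits in the membrane arm. Of these 7 genes 6 were tested and all 6 lay above 0, with a median of 1.06 and none called by limma (4 at an unadjusted p under 0.05, all higher). The log2 fold changes were 1.18 (SE 0.411) for mt-Nd1, 1.31 (SE 0.367) for mt-Nd2 and 2.07 (SE 1.04) for mt-Nd3. They were 0.93 (SE 0.285) for mt-Nd4, 0.66 (SE 0.370) for mt-Nd5 and 0.93 (SE 0.328) for mt-Nd6. The value of mt-Nd3 is uncertain, since its mean normalised count in WT was 34.6, beside 43504 for mt-Nd1. Reads of mitochondrial genes made up 3.91 to 8.85% of a library in WT and 7.12 to 8.22% in Osmr-/-.

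Assembly factors of complex I without an Nduf name are 17 symbols in the list used, of which 14 were tested and 3 had no row in the table. Their median was -0.07, with 6 above and 8 below 0 and none called by limma (1 at an unadjusted p under 0.05, lower). Tmem186, a membrane protein of the complex that also holds Ndufaf1, was that gene, with -1.05 (SE 0.479). Ecsit, of the same complex, had -1.11 (SE 0.873), Acad9 -0.56 (SE 0.334) and Tmem126b 0.22 (SE 0.346).

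Promoters were searched for the letters of 5 motifs in windows from 250 bases before to 50 bases after the RefSeq start (GRCm38.p6), on both strands. A window was at hand for 39 of the 45 members. The palindrome-like GCGCA-N-GCGC, bound by NRF1, a regulator of many respiratory chain genes, was found in 9 of 39 members (23.1%), in 12.0% of 9174 tested genes and in 5.19% of all 27025 genes with a window. AAGATGGCG, bound by YY1, was found in 5 of 39 members (12.8%), in 3.78% of tested and 1.64% of all genes. The ETS letters CCGGAAG were in 12.8% of members and 20.9% of tested genes, CCAAT in 33.3% and 43.0%, and the GC box GGGCGG in 51.3% and 68.0%. The NRF1 letters were held by 7 of 27 members above 0 and by 2 of 12 below 0, and by none of the 5 core subunits with a window. A match of letters is a description and shows no binding. The 4 windows below show the NRF1 letters (in capitals, in either orientation) for a pair of assembly factors and a pair of accessory subunits with opposite fold changes. Each line gives 30 bases of the gene's own strand with its coordinates.

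Ndufaf4, chr4:24897960-24897989, plus strand: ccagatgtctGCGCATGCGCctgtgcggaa

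Ndufaf5, chr2:140170652-140170681, plus strand: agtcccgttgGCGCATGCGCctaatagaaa

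Ndufa5, chr6:24527697-24527726, minus strand: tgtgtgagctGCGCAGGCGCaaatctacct

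Ndufa8, chr2:36049349-36049378, minus strand: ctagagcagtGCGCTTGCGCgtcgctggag

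Ndufaf4 and Ndufaf5 hold the same 10 motif letters, with log2 fold changes of 0.57 and -0.81. Ndufa5 and Ndufa8 had 0.87 and -0.56. The YY1 letters are shown, again in capitals, for the accessory subunit of lowest fold change (Ndufa9, -1.04), for Ndufc1 (0.91) and for the core subunit Ndufs7 (-0.64). In these 3 the letters lie after the start of transcription and include an ATG.

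Ndufa9, chr6:126849096-126849125, minus strand: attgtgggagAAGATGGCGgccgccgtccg

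Ndufc1, chr3:51408914-51408943, minus strand: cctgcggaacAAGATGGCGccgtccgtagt

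Ndufs7, chr10:80249463-80249492, plus strand: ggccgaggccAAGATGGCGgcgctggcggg

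Several members share sequence or position with other genes, and no source used here gives the strand setting of the counting. Of the 45 members 22 overlap another annotated gene, 18 of them one on the opposite strand. Among the genes described above, the opposite strand holds Kbtbd4 at Ndufs3, Eef1b2 at Ndufs1, Tfpt at Ndufa3, Impdh2 at Ndufaf3, Smim15 at Ndufaf2, Braf at Ndufb2 and Shmt2 at Ndufa4l2. Noncoding or pseudogene annotations lie there at Ndufa9 (1700018A23Rik), Ndufv2 (Gm23264 and AC119957.1) and Ndufab1 (Gm44986). The counts of all these genes are uncertain to that extent. Ndufv1, Ndufaf4, Ndufa4 and Ndufa1 overlap no annotated gene. An annotated pseudogene matched 8 members at 95% identity or more over at least 200 bases. Ndufa12 was the most affected, since the pseudogene Gm15920 held 36.3% of their joint reads. The sum of both had a log2 fold change of 0.69, beside 0.65 for Ndufa12 alone. Gm12251 held 12.4% of the reads shared with Ndufs3, and the sum gave -0.61 beside -0.63. Gm4459 held 6.07% of those shared with Ndufab1, and the sum gave 0.24 beside 0.23. No such pseudogene was found for Ndufv1, Ndufa9, Ndufa10, Ndufaf4, Ndufa4 or Ndufa1.

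The authors' deposited table gives an adjusted p under 0.05 for 3 members, against 4.46% of the 13802 genes with an adjusted p there. Turned to Osmr-/- over WT, the authors' deposited table gives -1.26 (SE 0.281) for Ndufv1, -1.01 (SE 0.318) for Ndufa9 and 0.56 (SE 0.136) for Ndufaf4. The adjusted p-values in the authors' deposited table, which come from DESeq2, are 0.0012, 0.041 and 0.0041 in that order. These are the same 3 genes that DESeq2 called on the recovered reads. Those reads derive from the authors' own normalised counts and the tool is the same, so this is no independent check.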

How the data were processed

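RNA of 1000 sorted cells per mouse was sequenced for 6 WT and 5 Osmr-/- mice. Per the submitters' processing notes, the tools were Trimmomatic 0.36.6, FastQC 0.72, HISAT2 2.1.0, HTSeq 0.9.1 and a DESeq2 wrapper 2.11.40.6, with the mm10 build. The sources used here do not name the gene annotation. The deposited expression signal is a gene's count divided by the DESeq2 size factor of its library, and whole reads were recovered from it for all 11 libraries (largest distance from a whole number 1.4e-09). The authors also deposited log2 scale values (regularised logarithm and variance-stabilised), used here as alternatives. The authors' deposited comparison gives per gene a mean signal, a log2 fold change with its error, a Wald score, a p-value and its adjusted form. Its sign is that of WT minus Osmr-/- for 615 of 615 called genes and was turned for printing.

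The test was limma 3.58.1 in R 4.3.3 (lmFit, eBayes with trend) on log2(normalised count + 1), with genotype as the only term, over 13358 genes with at least 10 normalised counts in at least 5 libraries. The p-values, all two-sided, were corrected over these genes (Benjamini-Hochberg, threshold 0.05). Fold changes are on the log2(value + 1) scale, and printed fold differences are taken from them. edgeR 4.0.16 and DESeq2 1.42.0 were run on the recovered reads. Other alternatives were a pseudocount of 0.5 or 10, leaving the filter off or raising it to 50, scaling by TMM or quantiles, a term for number sets 1 to 3 and 4 to 6, the sample number as a block, and leaving out each library. Members, roles and lists were chosen with earlier results of these data known, so no test over a list is given. Named in full are the core subunits (1 of them counts in the totals but is not reported here), the Ndufaf genes, the NDUFA4 family, every member called in any of 3 analyses (limma, limma with number set, the authors' table), the 5 of lowest p in each direction, members without overlap, and the 3 highest and 3 lowest per kb. Further members are named by arm, and Ndufa5, Ndufa8, Ndufc1, Ndufv3, Uqcrc1 and Cox7b were singled out after their values were seen. Depth was 9.50 to 22.1 M reads per library.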

Additional observations from a re-analysis of the deposited data

Results flagged for a closer look

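In 6 of 90 combinations of a member and a genotype, a library lay far from the rest of its group by Dixon's test at 95%. Chance flags about 1 in 20 such groups, which would be 4.5 of 90. WT 3 was the high library in 5 of the 6. There the normalised count was 2198 for the assembly factor Ndufaf2, 6816 for Ndufb11, 10417 for Ndufb8, 11595 for Ndufb9 and 3570 for Ndufs5, all accessory subunits apart from the first. The next highest WT libraries stood at 1291, 4984, 6998, 8639 and 2268. The core subunit Ndufs1 was high in Osmr-/- 3, at 1126 against 766 in the next library. Osmr-/- 3 was also the library with the highest myeloid marker sum, 26401 normalised counts against at most 17386 in any other. S100a8 and S100a9 weighed most in that sum, and the part of this marker difference in the Ndufs1 value was not tested.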

How the results depend on the processing

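The count of members called by genotype was 0 in limma, 3 with DESeq2 and 4 with the term for the number sets. It was 0 to 1 when each library was left out in turn, and the 1 was Ndufv1 without WT 6. The median log2 fold changes of subunits, core subunits, accessory subunits and assembly factors kept their sign under all alternatives run. On leaving out each library they ran from 0.25 to 0.43, from -0.72 to -0.37, from 0.37 to 0.73 and from -0.50 to -0.02, so the assembly factor median can come close to 0. Genes near 0 reversed. Ndufb7 (0.03) gave -0.15 with quantile scaling, -0.057 with the number sets and -0.18 to 0.37 on leaving out each library (negative in 5 cases). Ndufb8 (0.05) gave -0.16 with quantile scaling and -0.044 to 0.24 on leaving out each library. Ndufb10 (-0.10) gave 0.037 with edgeR, 0.052 with DESeq2 and -0.27 to 0.28 on leaving out each library. The same ranges were -0.31 to 0.12 for Ndufb9 and -0.50 to 0.029 for Ndufaf6, and among the left-out libraries only Osmr-/- 6 reversed the sign of these 3 genes. The cause was not tested. Same-numbered WT and Osmr-/- libraries deviated together with correlations of 0.020 to 0.099 over 5 pairs. These deviations also hold the split between the number sets, so the correlations cannot decide whether the numbers pair the mice. With the replicate block, which in effect drops WT 4, limma called 0 members, Ndufb7 gave -0.031, and the medians were 0.25 for subunits, -0.45 for core, 0.37 for accessory subunits and -0.29 for assembly factors. Only 1 of 5 Osmr-/- libraries correlated best with the WT library of its number. With 6 and 5 mice, the standard errors of single members ran from 0.175 to 0.535, which limits what could be detected.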
